A study of Mus musculus with 6 samples.

Results

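Collagen crosslinking and processing enzymes were followed here as 10 genes in the livers of mice fed a MASH diet. They are the lysyl oxidases *Lox*, *Loxl1*, *Loxl2*, *Loxl3* and *Loxl4*, the lysyl hydroxylases *Plod1* and *Plod2*, the prolyl hydroxylase subunit *P4ha1*, the propeptide-cleavage enhancer *Pcolce* and the collagen chaperone *Serpinh1*. Genes were taken by symbol, with 1 row for each, from a table of 25403 genes. All 10 had enough counts to be tested, as did 14496 genes in all.

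Collagen is built in steps. In the endoplasmic reticulum, prolyl hydroxylation stabilizes the triple helix, lysyl hydroxylation prepares the residues that later form crosslinks, and chaperones hold the folded trimer. After secretion the propeptides are cut off, and lysyl oxidases convert lysine and hydroxylysine side chains into aldehydes that join collagen and elastin molecules covalently. In fibrotic liver, activated hepatic stellate cells (HSC) and portal fibroblasts are known as main sources of fibrillar collagen, and crosslinked fibers are known to resist degradation.

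The 6 livers were 3 from wild-type C57BL6/J mice (WT) and 3 from whole-body *Themis*-KO mice. Both groups received the MASH diet (40% of its energy from fat and 20% from fructose, with cholesterol added at 2%) for 3 months, begun when the animals were 10 to 12 weeks old, so no liver represents a chow diet. The methods give a collaborating laboratory as the source of the knockout line and a commercial supplier for WT mice, while the study's text speaks of littermates for the chow-fed animals. The labels do not say which holds for these livers. The study describes its feeding experiment in male mice. Poly(A) RNA of frozen tissue was sequenced, and the authors deposited an estimated read count per gene and liver. The labels number the livers but do not state the sex of each or whether any mice were pooled, so p-values here measure the spread between these livers.

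The libraries held 20679642 to 25649767 counts. Levels are given as CPM, the counts of a gene per 1000000 counts of the library after TMM scaling, differences as log2 fold changes of *Themis*-KO over WT with their standard error (SE), and adjusted p-values come from the quasi-likelihood test of edgeR, adjusted by Benjamini-Hochberg over all genes tested. *Themis*, the targeted gene, measured 8.07, 25.6 and 12.0 CPM in the livers labelled WT and 8.63, 7.74 and 9.97 CPM in those labelled *Themis*-KO (log2 -0.79, SE 0.38, adjusted p = 0.199). The ranges overlapped, so this gene did not separate the labels, and each direction rests on them. WT replicates 1 and 2 also stood apart in 2 near-identical sequences, mitochondrial *mt-Nd3* and nuclear *Gm28438*. *Gm28438* took 96.6% and 96.8% of the counts of that pair in these 2 livers, but 2.2% in WT replicate 3 and 2.27% to 3.26% in *Themis*-KO livers. This split, here called the mitochondrial type, is set by the counts of that pair alone. The labels do not name it, and its source is unknown. It leaves 1 WT liver of the type of the *Themis*-KO livers. The liver label held, with *Alb* at a mean of 41692 CPM in WT and 34861 CPM in *Themis*-KO livers.

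Promoter sequence from RefSeq (GRCm38.p6) was at hand for 5 of the 10 genes, *Loxl4*, *Plod1*, *P4ha1*, *Pcolce* and *Serpinh1*. Windows ran from 250 bases before the start of transcription to 50 bases after it, and 4 motifs were searched on both strands. ACGTG, the core that hypoxia-inducible factors (HIF) recognize, was present in 2 of the 5 windows, against 19.62% of all 32817 promoter windows. *P4ha1* and several other collagen hydroxylases are known HIF targets, so the 2 matching promoters are shown, each 5′ to 3′ on the gene's strand and ending at the base before the start. Capitals mark the motif, which reads CACGT where it lies on the opposite strand. The *P4ha1* stretch is chr10:59323046-59323295 on the forward strand and the *Serpinh1* stretch is chr7:99353240-99353489 on the reverse strand.
P4ha1: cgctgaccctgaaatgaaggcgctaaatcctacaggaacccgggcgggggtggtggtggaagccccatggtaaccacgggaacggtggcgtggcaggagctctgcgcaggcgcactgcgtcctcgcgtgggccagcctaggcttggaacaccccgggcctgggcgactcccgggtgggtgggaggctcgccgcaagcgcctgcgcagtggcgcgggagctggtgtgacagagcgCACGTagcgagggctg
Serpinh1: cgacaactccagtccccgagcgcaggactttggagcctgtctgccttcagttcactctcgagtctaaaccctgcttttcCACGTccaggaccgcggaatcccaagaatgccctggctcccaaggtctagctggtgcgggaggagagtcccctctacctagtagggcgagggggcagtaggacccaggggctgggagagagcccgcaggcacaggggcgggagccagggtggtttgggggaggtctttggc
Counted from the start, with negative values upstream, the motif began at -16 in *P4ha1* and at -171 in *Serpinh1*. GGGCGG, the GC box bound by Sp-family factors, was in 5 of the 5 windows, against 35.63% of all windows. TGANTCA, the AP-1 motif, and GGAATG, a TEAD motif, were in 0 of the 5, against 7.813% and 14.66% of all windows. A match is a description of letters and was not tested as a binding site.

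Of the 10 genes, only *Lox* rose at an adjusted p under 0.05, and none fell. Over all genes tested, 4.97% were called higher and 4.14% lower. *Lox* was also the only one of the 10 called at 2-fold or more, a class that held 1.86% of all genes. Beyond this single call, 9 of the 10 were above 0 on the log2 scale, against 51% of all genes, and 8 were higher at an unadjusted p under 0.05, against 16.8%. Their median was 0.75, against 0.0095 over all genes. In 6 of them every *Themis*-KO liver lay above every WT liver, a pattern seen in 17.7% of all genes, and in 0 every *Themis*-KO liver lay below, against 16.9%. These genes are expressed by overlapping sets of cells, so the 10 are not independent observations.

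**Figure D1:**
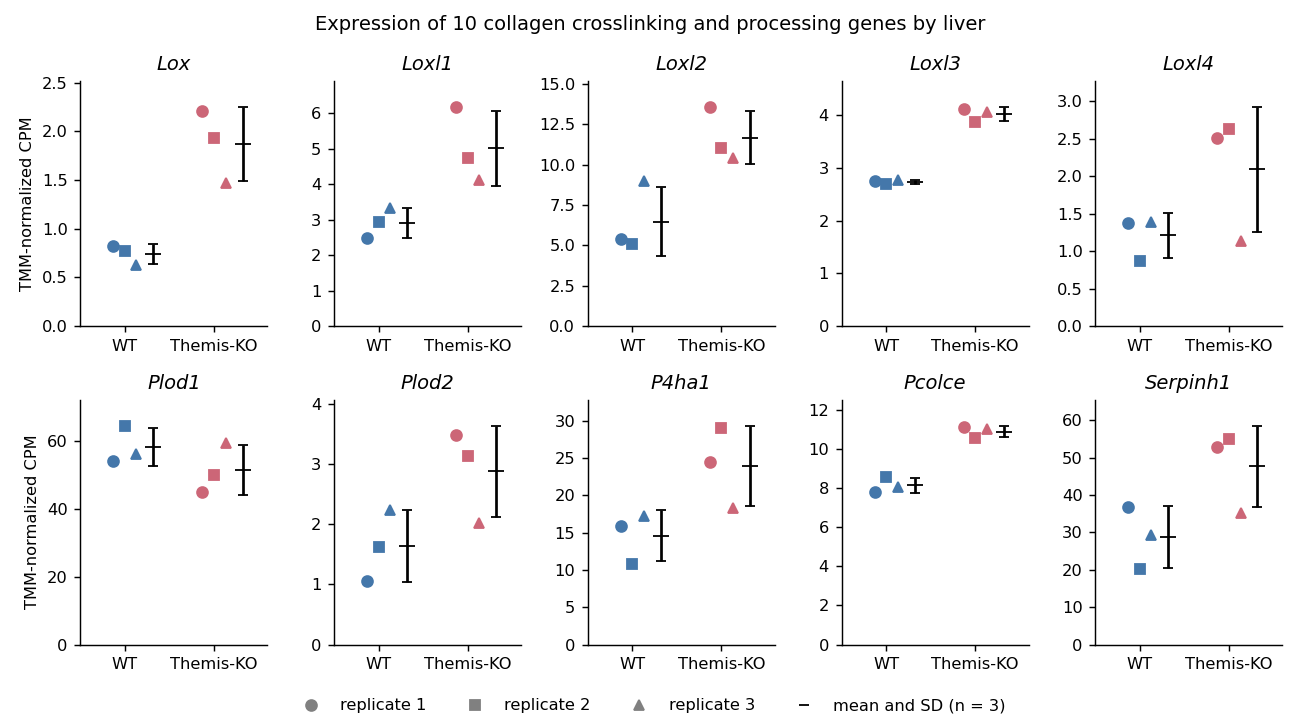
Level of each gene in each liver, as TMM-normalized CPM on linear axes that start at 0, with 1 symbol per replicate and the group mean with its SD (n = 3) beside the points. *Lox*, *Loxl1*, *Loxl2*, *Loxl3*, *P4ha1* and *Pcolce* show no overlap between the groups, while *Plod1* is the gene whose *Themis*-KO mean, 51.3 CPM, lies below its WT mean, 58.1 CPM.

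*Lox* encodes the founding lysyl oxidase, which starts crosslinks in collagen and elastin. Its gene (ENSMUSG00000024529) spans 52516067 to 52529867 on the reverse strand of chromosome 18 (build GRCm38, as for all genes here). It measured 0.826, 0.768 and 0.631 CPM in WT livers and 2.21, 1.94 and 1.46 CPM in *Themis*-KO livers, means of 0.742 ± 0.0998 and 1.87 ± 0.377 (SD, n = 3). The groups did not overlap, and the level rose 2.53-fold (log2 1.34, SE 0.27, adjusted p = 0.0313). An exact two-sided permutation test gave p = 0.1, the smallest that 3 livers against 3 allow. *Lox* also had the lowest mean counts of the 10, with 16 to 18 counts in each WT liver and 31 to 52 in each *Themis*-KO liver, so that counting error alone was 24.5% of a mean WT count. The call was absent with the mitochondrial type as a covariate (log2 1.56, adjusted p = 0.390), in a fit that called 0 of all genes higher. Of the fits that left out 1 liver, it held only without *Themis*-KO replicate 3 (adjusted p = 0.00811), the others reaching up to 0.121.

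*Loxl2*, a lysyl oxidase that acts on basement membrane and fibrillar collagen, had the highest mean level per kilobase of its family. Its gene (ENSMUSG00000034205) spans 69609068 to 69695834 on the forward strand of chromosome 14. It measured 5.37, 5.09 and 8.96 CPM in WT livers and 13.6, 11.1 and 10.4 CPM in *Themis*-KO livers. All *Themis*-KO livers were above all WT livers, although WT replicate 3 stood close to them. The log2 fold change was 0.85 (SE 0.23, 95% interval 0.31 to 1.39, adjusted p = 0.0599), just above the threshold of 0.05. Without WT replicate 3 it was 1.16 with an adjusted p of 0.0233, and with the mitochondrial type as a covariate it was 0.38 with an adjusted p of 0.548. WT replicate 3 was also the highest WT liver in the summed macrophage markers, at 383.6 CPM against 237.5 and 230.9 CPM in replicates 1 and 2. The same liver was highest of the WT livers in the HSC, myofibroblast, endothelial and T cell sums, but not in the hepatocyte or portal fibroblast sums. The part of any of these cells in the *Loxl2* level was not tested.

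*Loxl1*, known for its work on elastic fibers, measured 2.48, 2.93 and 3.31 CPM in WT and 6.16, 4.73 and 4.11 CPM in *Themis*-KO livers. Its gene (ENSMUSG00000032334) spans 58287738 to 58313186 on the reverse strand of chromosome 9. The groups did not overlap, but the difference missed the threshold (log2 0.78, SE 0.21, adjusted p = 0.0562). *Loxl3*, an oxidase with known roles in cartilage and palate collagen, had the least spread of the 10 among WT livers, with a coefficient of variation of 1.49%. Its gene (ENSMUSG00000000693) spans 83034173 to 83052562 on the forward strand of chromosome 6. It measured 2.75, 2.69 and 2.76 CPM in WT and 4.12, 3.87 and 4.06 CPM in *Themis*-KO livers. Every *Themis*-KO liver was above the WT range, at a small fold (log2 0.55, SE 0.15, adjusted p = 0.0598). Counting error alone was 12.7% of a mean WT count, above the coefficient of variation of 1.49%. The closeness of the 3 WT values thus does not show that this gene varies little between livers. Of the *Loxl3* exons, 535 bases, or 11.6%, overlap *Htra2* on the opposite strand, and the strand setting of the counting is not given in the sources used here. *Htra2* itself had means of 16.7 and 17.9 CPM (log2 0.11, adjusted p = 0.561).

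*Loxl4* measured 1.38, 0.864 and 1.38 CPM in WT livers and 2.51, 2.62 and 1.13 CPM in *Themis*-KO livers. Its gene (ENSMUSG00000025185) spans 42593982 to 42612813 on the reverse strand of chromosome 19. *Themis*-KO replicate 3 lay inside the WT range, and the interval of the difference included 0 (log2 0.79, SE 0.36, 95% interval -0.05 to 1.63, adjusted p = 0.184).

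Within the lysyl oxidase family, the balance was compared as each gene's share of the summed counts per kilobase of exon, a measure that does not depend on library scaling. *Loxl2* led with 37.8% ± 5.86 in WT and 39.8% ± 1.72 in *Themis*-KO livers (SD, n = 3), and *Loxl1* followed with 28.5% and 27.7%. The share of *Lox* was 5.14% ± 1.38 in WT and 7.16% ± 0.497 in *Themis*-KO livers, and these groups did not overlap. *Loxl3* took 19.4% and 16.3%, and *Loxl4* 9.23% and 8.95%. By group means, the order of the 5 genes was thus the same in both groups. In *Themis*-KO replicate 3, however, *Lox* (6.61%) lay above *Loxl4* (5.80%).

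**Figure D2:**
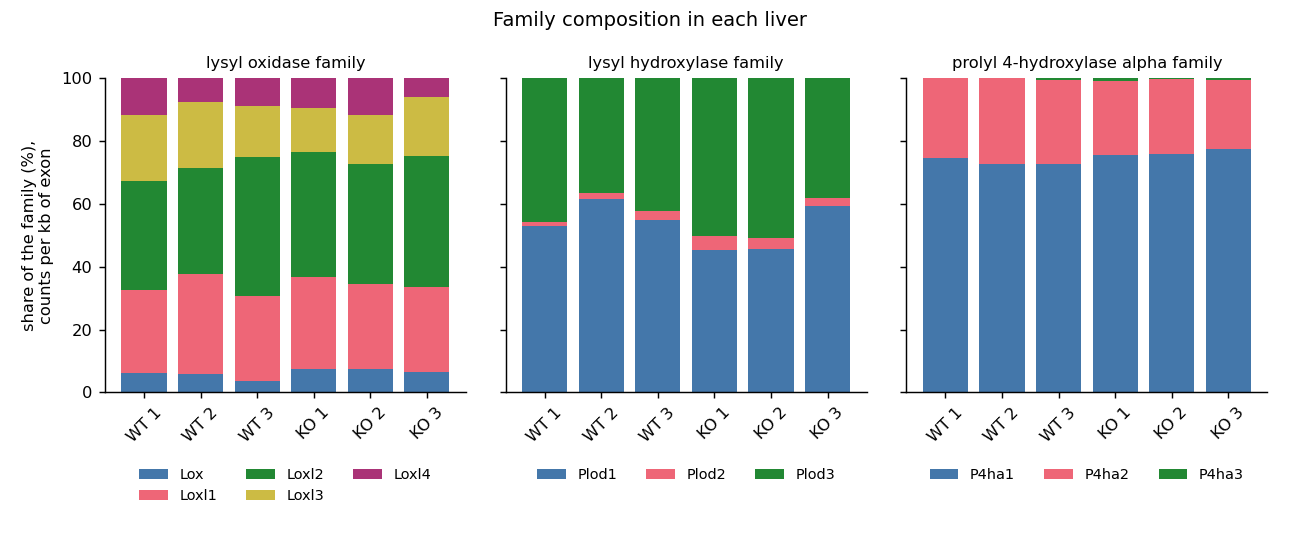
Stacked bars of the share of each gene in the summed counts per kilobase of exon of its family, in percent, with 1 bar per liver (KO for *Themis*-KO) and 1 panel each for lysyl oxidases, lysyl hydroxylases and prolyl 4-hydroxylase alpha subunits. *Lox* and *P4ha1* take a larger share in every *Themis*-KO liver than in any WT liver. The smaller *P4ha2* share mirrors that of *P4ha1*.

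Among the hydroxylases, *P4ha1* encodes the main catalytic subunit of prolyl 4-hydroxylase, which makes the hydroxyproline that keeps the triple helix stable at body temperature. Its gene (ENSMUSG00000019916) spans 59323296 to 59373304 on the forward strand of chromosome 10. It measured 15.9, 10.8 and 17.2 CPM in WT livers and 24.5, 29.0 and 18.3 CPM in *Themis*-KO livers. The groups did not overlap, with *Themis*-KO replicate 3 barely above WT replicate 3 (log2 0.71, SE 0.21, adjusted p = 0.0738). As a share of the prolyl 4-hydroxylase alpha subunits, *P4ha1* took 74.6%, 72.7% and 72.7% in WT livers and 75.7%, 76.1% and 77.6% in *Themis*-KO livers, without overlap. *P4ha2*, the second subunit, took 26.5% ± 0.938 and 23.0% ± 0.992. It made up nearly all of the rest, so its share mirrors that of *P4ha1* and is not a separate result. The level of *P4ha2* itself was 7.97 ± 1.72 and 11.0 ± 2.95 CPM (log2 0.47, adjusted p = 0.220). The third, *P4ha3*, had 0 to 4 counts per liver and was not tested. *P4hb*, the beta subunit, which is also the general protein disulfide isomerase, was far more abundant at 1510 and 1363 CPM (log2 -0.15, adjusted p = 0.36).

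*Plod2*, the lysyl hydroxylase known to modify the telopeptide lysines used in stable pyridinoline crosslinks, measured 1.06, 1.63 and 2.25 CPM in WT and 3.48, 3.14 and 2.03 CPM in *Themis*-KO livers. Its gene (ENSMUSG00000032374) spans 92542223 to 92608428 on the forward strand of chromosome 9. *Themis*-KO replicate 3 fell below WT replicate 3, and the difference missed the threshold (log2 0.80, SE 0.32, 95% interval 0.06 to 1.55, adjusted p = 0.141). The covariate for the mitochondrial type took the log2 fold change to 0.36.

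*Plod1*, which hydroxylates lysines within the triple helix, was the exception in sign. Its gene (ENSMUSG00000019055) spans 147909753 to 147936767 on the reverse strand of chromosome 4. It measured 53.9, 64.4 and 56.0 CPM in WT livers and 44.7, 49.8 and 59.2 CPM in *Themis*-KO livers. The groups overlapped, and the log2 fold change was -0.18 (SE 0.12, 95% interval -0.46 to 0.11, adjusted p = 0.353). The upper bound of that interval lies below the fitted value of each of the other 9 genes. *Plod3*, which carries both lysyl hydroxylase and glycosyltransferase activity, measured 28.4 ± 2.85 and 31.7 ± 5.99 CPM (log2 0.16, adjusted p = 0.494). Among the 3 lysyl hydroxylases per kilobase, *Plod1* took 56.5% ± 4.53 in WT and 50.2% ± 8.07 in *Themis*-KO livers, *Plod3* 41.5% and 46.3%, and *Plod2* 2.01% ± 0.737 and 3.54% ± 0.940. All 3 shares overlapped between the groups.

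*Serpinh1*, the collagen-specific chaperone HSP47, had the highest mean level of the 10 per kilobase. Its gene (ENSMUSG00000070436) spans 99345376 to 99353239 on the reverse strand of chromosome 7. It measured 36.8, 20.3 and 29.4 CPM in WT and 52.8, 55.0 and 35.2 CPM in *Themis*-KO livers. Here too *Themis*-KO replicate 3 fell inside the WT range (log2 0.73, SE 0.24, adjusted p = 0.0893). *Serpinh1* counting error was only 3.90% of a mean WT count, against a coefficient of variation of 28.8% among WT livers.

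*Pcolce* encodes the enhancer that speeds removal of the C-propeptide by BMP1. Its gene (ENSMUSG00000029718) spans 137605103 to 137613784 on the reverse strand of chromosome 5. It measured 7.80, 8.54 and 8.05 CPM in WT and 11.1, 10.5 and 11.0 CPM in *Themis*-KO livers. The difference was small (log2 0.42, SE 0.11, 95% interval 0.16 to 0.68, adjusted p = 0.0542). Coefficients of variation were 4.65% in WT and 2.74% in *Themis*-KO livers. Counting error alone was 7.37% of a mean WT count, so the closeness of the WT values does not measure their precision. *Pcolce* and *Lox* were the 2 genes with an unadjusted p under 0.05 once the mitochondrial type was a covariate, at 0.0423 and 0.00787.

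Levels can be compared between genes only per length. As mean CPM per kilobase of exon, the order from the highest was *Serpinh1* (11.8 in WT and 19.5 in *Themis*-KO livers), *Plod1* (8.58 and 7.58), *P4ha1* (3.55 and 5.82), *Pcolce* (2.13 and 2.85) and *Loxl2* (1.20 and 2.16). Below these came *Loxl1* (0.882 and 1.52), *Loxl3* (0.594 and 0.873), *Plod2* (0.305 and 0.535), *Loxl4* (0.287 and 0.496) and *Lox* (0.155 and 0.391). Both groups thus had the same order. Neighbours whose ranges overlapped were *Serpinh1* with *Plod1*, *Loxl2* with *Loxl1* and *Plod2* with *Loxl4* in WT livers. In *Themis*-KO livers they were *Plod1* with *P4ha1*, *Plod2* with *Loxl4* and *Loxl4* with *Lox*.

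Single livers recurred across the genes. *Themis*-KO replicate 3 was the lowest *Themis*-KO liver in 7 of the 10 genes, *Lox*, *Loxl1*, *Loxl2*, *Loxl4*, *Plod2*, *P4ha1* and *Serpinh1*, and the highest in *Plod1*. WT replicate 3 was the highest WT liver in 6 genes. Without *Themis*-KO replicate 3, 9 of the 10 genes were called higher, every one but *Plod1*, while 15% of all genes tested in that fit, 2228, were called higher. Without WT replicate 3 only *Loxl2* was called, against 3.24% of all genes. Without any one of the other 4 livers the count was 0, in fits that called only 8 to 27 of all genes higher. In those fits 6 or 7 of the 10 were higher at an unadjusted p under 0.05, against 10.9% to 12.3% of all genes. With the mitochondrial type as a covariate the count was also 0, as it was over all genes. In that fit 2 of the 10 were higher at an unadjusted p under 0.05, against 5.4% of all genes. No gene changed sign when a liver was left out, and *Plod1* ranged from -0.31 to -0.09 on the log2 scale. DESeq2 called 5 of the 10, *Lox*, *Loxl1*, *Loxl2*, *P4ha1* and *Serpinh1*, against 8.78% of all genes called higher by it.

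**Figure D3:**
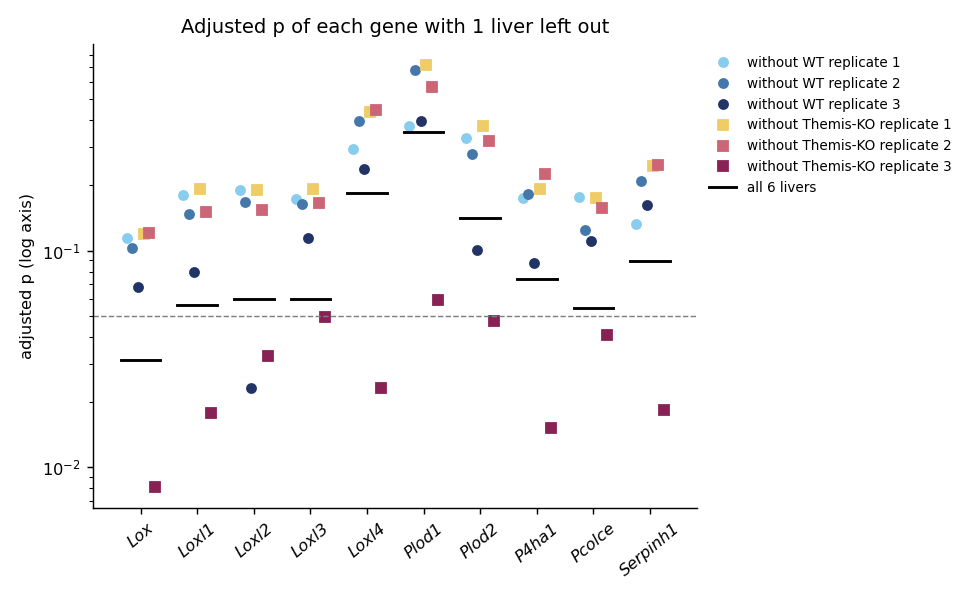
Adjusted p (log axis) of each of the 10 genes with each liver left out in turn, as points colored by the liver left out, and with all 6 livers, as black bars. The dashed line is the threshold of 0.05. Without *Themis*-KO replicate 3, 9 genes lie under it, against 1 with all 6 livers.

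The collagens these enzymes act on were compared beside them. Of 9 fibrillar collagen genes tested, 5 rose and 0 fell, with a median log2 fold change of 0.65. Across all genes tested, 4.97% were called higher and 4.14% lower, with a median of 0.0095. The log2 fold changes of the type I and III chains were 1.15 for *Col1a1* (adjusted p = 0.0248, SE 0.20), 1.00 for *Col1a2* (adjusted p = 0.00936, SE 0.11) and 0.94 for *Col3a1* (adjusted p = 0.00936, SE 0.11). The type V chains *Col5a1* (0.65, adjusted p = 0.017) and *Col5a2* (0.92, adjusted p = 0.0224) rose as well. With the mitochondrial type as a covariate 0 of these calls held, in a fit that called 0 of all genes higher. The median log2 fold change of the 9 collagen genes was 0.65 in that fit.

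The enzymes were also set against their main substrates, which themselves rose by log2 values of 0.94 to 1.15. Any gene that rose less than these collagens is lower per collagen count. The median log2 fold change over all genes was 0.0095, and the share of all genes lower on this scale is not given here. The summed counts of the 10 genes were 91.6% ± 5.86 of the summed counts of *Col1a1*, *Col1a2* and *Col3a1* in WT livers and 59.8% ± 5.27 in *Themis*-KO livers (SD, n = 3), without overlap (exact two-sided permutation p = 0.1, the smallest possible). *Plod1* alone was 42.5% ± 5.77 and 19.3% ± 5.29, also without overlap. Without *Plod1* the sum was 49.0% ± 8.16 and 40.4% ± 4.14, and the groups overlapped (exact permutation p = 0.2). *Pcolce*, at 5.95% ± 0.543 and 4.05% ± 0.537, and *Loxl3*, at 2.00% ± 0.133 in WT livers and 0.748 times that in *Themis*-KO livers, were also lower per collagen count in every *Themis*-KO liver. *Lox* was the only gene with a ratio of *Themis*-KO to WT above 1, at 1.25, and its groups overlapped (0.546% ± 0.109 and 0.684% ± 0.0570). For the other 6 genes the ratio lay between 0.828 and 0.923, with overlap.

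**Figure D4:**
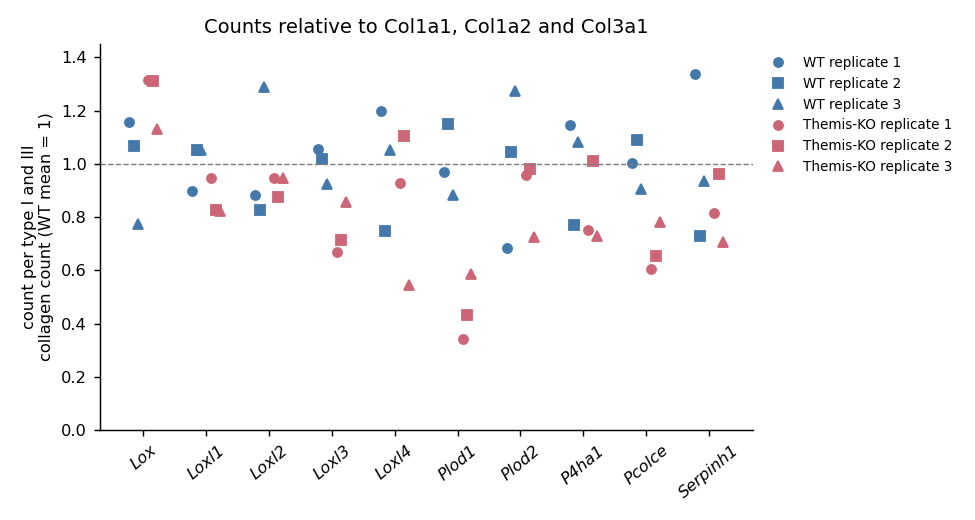
Counts of each gene per summed *Col1a1*, *Col1a2* and *Col3a1* count of the same liver, divided by the mean of the WT livers (dashed line at 1), with 1 symbol per liver on a linear axis that starts at 0. *Plod1*, *Pcolce* and *Loxl3* are lower in every *Themis*-KO liver than in any WT liver, and *Lox* alone has a mean above 1 in *Themis*-KO livers.

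A further 40 genes of collagen modification, export, cleavage and crosslinking were counted as lists, of which 36 were tested. Of these, 5 rose and 1 fell, 26 had a positive fold change, and the median was 0.35 on the log2 scale. Among all genes tested, 4.97% were called higher, 4.14% lower and 51% were positive, with a median of 0.0095. In 11 of the 36 every *Themis*-KO liver lay above every WT liver, against 17.7% of all genes. In 4 every *Themis*-KO liver lay below, against 16.9%. With the mitochondrial type as a covariate 0 of the 6 calls held, in a fit that called 0 of all genes higher and 3 lower. The median of the 36 genes was 0.22 in that fit. The gene that fell was *Colgalt2*, one of the enzymes that attach galactose to hydroxylysine. It had 26, 23 and 28 counts in WT livers and 3, 2 and 5 in *Themis*-KO livers (log2 -2.89, SE 0.38, adjusted p = 0.0129).

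Of 9 genes for collagen chaperones and export, 1 rose, *Sparc*, a collagen-binding matricellular protein, from 71.9 ± 3.84 to 114.6 ± 4.66 CPM (log2 0.67, SE 0.08, adjusted p = 0.0112). Of 9 partners of the lysyl oxidases, 3 rose. *Postn*, periostin, which is known to help BMP1 activate *Lox*, went from 19.3 ± 1.15 to 34.1 ± 1.47 CPM (log2 0.82, SE 0.09, adjusted p = 0.00936). *Eln*, elastin, the other main substrate, rose by a log2 value of 0.90 (SE 0.16, adjusted p = 0.0241), and *Fmod*, fibromodulin, which binds collagen and lysyl oxidase, by 1.16 (SE 0.28, adjusted p = 0.0439). Of 3 transglutaminases, which join proteins by another kind of crosslink, *Tgm2* rose from 239 ± 29.0 to 401 ± 98.7 CPM (log2 0.75, SE 0.19, adjusted p = 0.0491).

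The remaining steps held no call. Of the 6 genes listed as prolyl 3-hydroxylases, their relatives and partners, 0 passed. The log2 fold changes were -0.32 for *Ppib* (adjusted p = 0.156), 0.03 for *P3h1* (adjusted p = 0.92) and 0.59 for *Crtap* (adjusted p = 0.0699). The complex of *P3h1*, *Crtap* and *Ppib* modifies single prolines and helps fold the chains. *Bmp1*, the C-proteinase that *Pcolce* enhances and that also activates pro-*Lox*, measured 102.3 and 89.0 CPM on average (log2 -0.20, adjusted p = 0.158), and *Pcolce2* had a log2 fold change of 0.30 (adjusted p = 0.519). Of the N-proteinases, *Adamts2* measured 0.51 (adjusted p = 0.0737) and *Adamts14* 0.70 (adjusted p = 0.0533) on the log2 scale, and *Adamts3* was too low to test, as were *Tll1* and *Tll2*, relatives of *Bmp1*. For *Bmp1* and *Ppib* every *Themis*-KO liver lay below every WT liver. For *Crtap*, *Adamts2* and *Adamts14* every *Themis*-KO liver lay above.

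**Figure D5:**
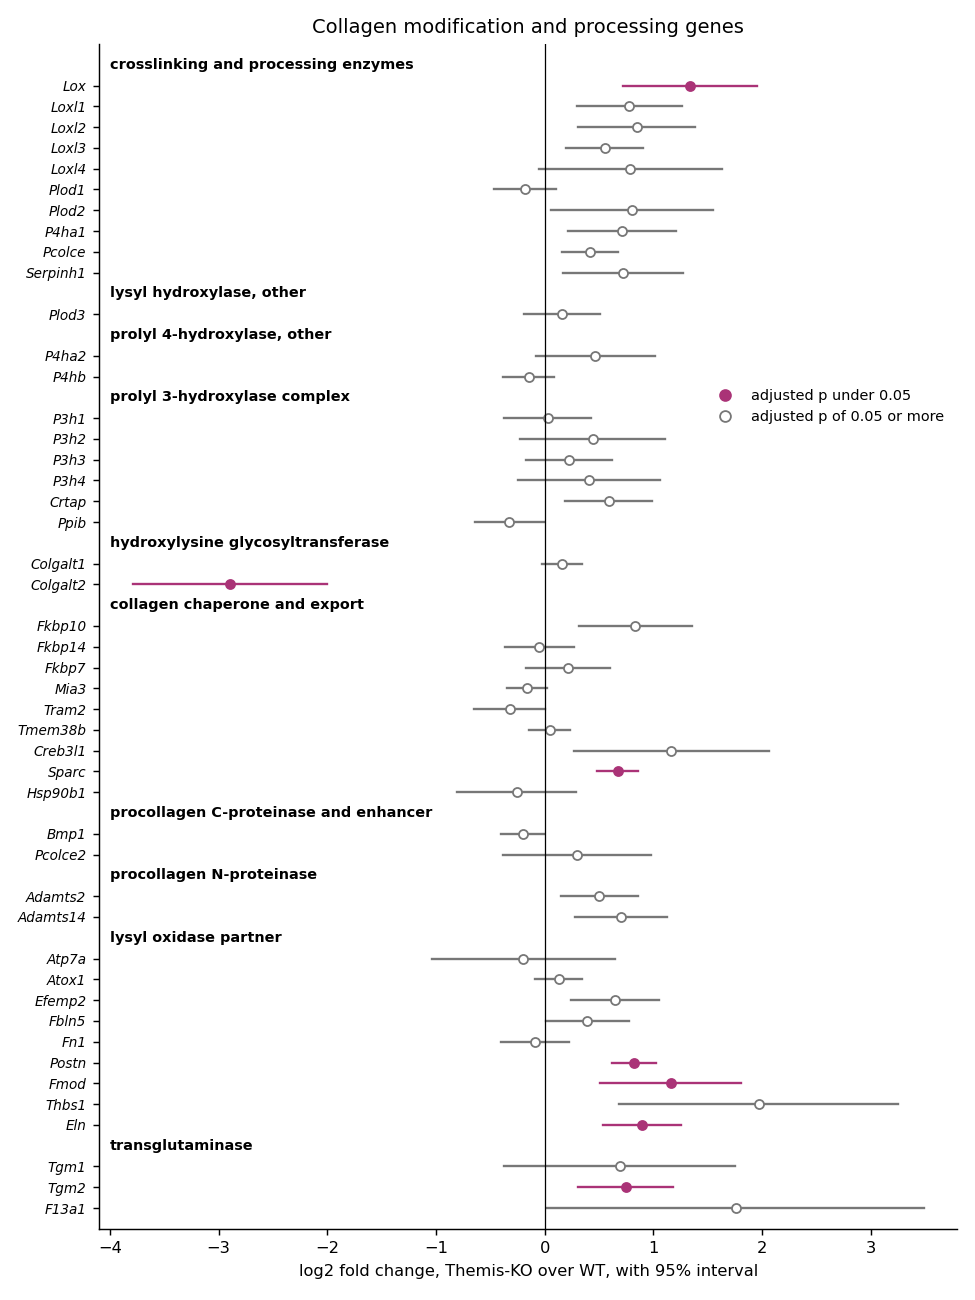
Log2 fold change (*Themis*-KO over WT) with its 95% interval for the 10 genes and the other tested genes of collagen processing, grouped by role; filled points passed an adjusted p under 0.05. *Lox*, *Sparc*, *Postn*, *Fmod*, *Eln* and *Tgm2* are the filled points above 0 and *Colgalt2* the one below it.

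Genes known to respond to HIF moved in both directions. Of 17 tested, 4 rose and 1 fell, 11 were positive and 6 negative, and the median was 0.27 on the log2 scale. Of all genes tested, 4.97% were called higher, 4.14% lower and 51% were positive, with a median of 0.0095. *Hk2*, hexokinase, rose by 1.48 (SE 0.31, adjusted p = 0.0345), *Adm*, adrenomedullin, by 1.14 (SE 0.20, adjusted p = 0.0241), *Ndrg1* by 0.83 (SE 0.20, adjusted p = 0.0464) and *Pfkfb3*, a regulator of glycolysis, by 0.66 (SE 0.08, adjusted p = 0.0112). *Bnip3*, a mitophagy receptor, fell by 0.37 (SE 0.08, adjusted p = 0.0339). With the mitochondrial type as a covariate 0 of these calls held, in a fit that called 0 of all genes higher and 3 lower. The median of the 17 genes was 0.24 in that fit.

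In bulk liver, more cells of a type and more RNA per cell cannot be told apart, so cell markers are given beside these results. The share called over all genes tested was 4.97% higher and 4.14% lower. Of 11 HSC markers 2 rose, their summed level was 442.6 to 486.6 CPM in WT and 556.6 to 609.5 CPM in *Themis*-KO livers, and the most abundant was *Dcn* (165.5 and 217.6 CPM). The myofibroblast markers, 2 of 5 tested higher and led by *Tagln*, summed to 22.6 to 33.9 and 37.2 to 52.8 CPM, and those of portal fibroblasts, 1 of 5 tested higher and led by *Entpd2*, to 15.7 to 19.6 and 23.9 to 28.9 CPM. The sums of these 3 lists of matrix-producing cells did not overlap between the groups. Nor did those of endothelial markers, also higher in *Themis*-KO livers, and hepatocyte markers, which were lower. *Themis*-KO replicate 3, low for most of the 10 genes, had the highest HSC sum but the lowest myofibroblast sum of its group. Hepatocyte markers, 1 of 10 called lower and led by *Alb*, summed to 70554 to 77374 and 60727 to 64999 CPM. Endothelial markers (1 of 8 higher, *Stab2* leading) spanned 196.1 to 214.9 and 218.0 to 241.9 CPM. Macrophage markers, 4 of 9 higher and led by *Lyz2*, spanned 230.9 to 383.6 and 382.5 to 518.4 CPM, and T cell markers, 1 of 5 tested lower and led by *Cd4*, 4.0 to 5.6 and 3.1 to 7.5 CPM. *Gli1* and *Upk1b* of the portal fibroblast list had 0 counts in some livers. The part of these cells in the levels of the 10 genes was not tested.

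As a percentage of the summed HSC marker counts, *Lox* was 0.159% in WT and 0.327% in *Themis*-KO livers, a ratio of 2.05, without overlap. *Loxl3* (0.586% and 0.699%) and *Pcolce* (1.74% and 1.89%) were also higher without overlap, at ratios of 1.19 and 1.09. For *Pcolce* the groups nearly touched, at 1.803% in WT replicate 2 and 1.805% in *Themis*-KO replicate 3. *Plod1* was lower in every *Themis*-KO liver, at 12.4% and 8.88%, a ratio of 0.715. The summed HSC markers were themselves higher in every *Themis*-KO liver in CPM, which lowers each ratio on this scale. The share of all genes that separate on this scale, in either direction, is not given here. The other 6 genes overlapped between the groups on this scale, so that the groups which separated for *Loxl1*, *Loxl2* and *P4ha1* in CPM did not separate per HSC marker count.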

How the data were processed

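Poly(A) RNA of 3 WT and 3 *Themis*-KO livers was sequenced, and groups were taken from the sample titles. Per the submitters' processing notes, the tools were cutadapt 2.3, STAR 2.7.8a and RSEM 1.3.3 with GRCm38, and the annotation release is not given in the sources used here. The authors deposited estimated counts per gene, not normalized and given as whole numbers, with no molecular identifiers. RSEM divides reads that fit several genes, so near-identical genes share error.

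The test was edgeR 4.0.16 in R 4.3.3 (filterByExpr, which removed 10907 of 25403 genes, TMM, glmQLFit and glmQLFTest without covariates), with a threshold of 0.05 on the Benjamini-Hochberg adjusted p. SEs and 95% intervals come from the F statistic. CPM carry no prior count. The fit was tested on simulated data. DESeq2 1.42.0, limma 3.58.1 and matplotlib 3.10.9 were also used. The alternatives were RLE, upper quartile and total-count scaling, no filter, at least 10 counts in every liver, DESeq2, a replicate block, the mitochondrial type, each liver left out, and other thresholds. Exon lengths, coordinates and overlaps came from GENCODE vM21 on GRCm38.

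The 10 genes, the lists and the mitochondrial type were chosen with earlier results of these data known. Genes named are the 10, and from each list those with an adjusted p under 0.05 or else up to 3 of highest mean CPM. From each list of cell markers the gene of highest mean CPM is named. *Htra2*, *Gli1* and *Upk1b* were named after their values were seen. Between 2 livers chi-square over its degrees of freedom was at least 9.12, so each counted as 1 replicate. Library sizes of 20679642 to 25649767 counts limit the precision of low genes. The result of 1 marker list is not reported here.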

Additional observations from a re-analysis of the deposited data

How the results depend on the processing

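Over the single values of the 10 genes, 112 kept their direction and their side of the threshold, 21 newly passed it, 7 no longer passed it and 0 reversed. Of the 10 genes called higher (1 as reported), 5 passed with total counts alone, 5 without a filter, 5 with DESeq2 and 7 at an adjusted p under 0.1. Leaving out 1 liver gave 0 to 9. The study speaks of 3 pairs of livers, and the labels do not say whether the replicate numbers are those pairs. Once group means were removed, livers of the same number correlated at 0.000277, -0.241 and -0.157. So few values cannot show whether the livers were paired. With the replicate block 0 of the 10 passed (7 at an unadjusted p under 0.05; *Lox* had an adjusted p of 0.0917), and with the mitochondrial type as a covariate 0 passed (2 at an unadjusted p under 0.05). That covariate leaves 1 WT liver to compare within a type.

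Over all genes, 721 higher and 600 lower became 1449 and 387 with total counts alone, 1212 and 967 without a filter, 1273 and 1084 with DESeq2, 17 and 45 with the block (1949 and 1496 at an unadjusted p under 0.05), 0 and 3 with the mitochondrial type (783 and 741 at an unadjusted p under 0.05), 1664 and 1316 at an adjusted p under 0.1, and 269 and 162 at 2-fold. Total counts alone moved the median log2 fold change of all genes from 0.0095 to 0.147 and the share of higher calls from 54.6% to 78.9%. Leaving out 1 liver gave 8 to 2228 higher and 12 to 2039 lower, with both lowest values without *Themis*-KO replicate 1 and both highest without *Themis*-KO replicate 3.

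Of the collagen processing lists (5 higher, 1 lower), 11 were higher with total counts alone, 9 without a filter, 12 with DESeq2, and 0 with the block or the mitochondrial type. Lower calls were 0 with at least 10 counts in every liver, which removes *Colgalt2*, and 0 with the block or the mitochondrial type. Leaving out 1 liver gave 0 to 15 higher and 0 to 1 lower. HIF targets higher (4) became 0 with the block or the mitochondrial type, and those lower (1) became 0 with total counts alone, 2 with DESeq2, and 0 with the block or the mitochondrial type, with 0 to 9 and 0 to 3 over the livers left out. Fibrillar collagens higher (5) became 1 with the block and 0 with the mitochondrial type, with 0 to 5 over the livers left out. The cause of these changes was not tested. With 16 to 18 counts of *Lox* in each WT liver, depth limits the *Lox* values.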
